A study of Drosophila melanogaster with 5 samples.

Results

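The 69 genes described here encode proteins of the mitochondrial ribosome. They were taken by symbol from the 11982 genes with a single symbol in the platform's gene annotation. All whose symbol starts with mRpL or mRpS were included, a choice made with earlier results of these data known. Where a gene had several probe sets, the one with the highest mean over the 5 arrays was used. Of 73 such genes in a current table of fly genes, 4 were left out, namely mRpS10 and mRpL53, whose probe sets are shared with another gene, and mRpL34 and mRpL37, which had no probe set named here. No filter on low values was applied, and all 69 genes entered the tests.

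Cephalic complexes, in which the eye-antennal discs are joined to the brain lobes of the larva, were pooled (20 pairs per array by the labels) and their mRNA was hybridised to Affymetrix Drosophila 2.0 arrays. The 2 control arrays were of FRT82B larvae at day 0 of the last larval instar, and a further control array was set aside by the submitters for its quality and was not analysed here. The 3 mutant arrays were of larvae at day 4 of the same instar that carried the alleles lgl27S3 and lglE2S31 of lethal giant larvae (lgl), a null combination of a gene for apico-basal polarity whose loss makes these tissues overgrow. The study's text gives the control larvae as w1118, whereas the labels give FRT82B, and the labels are followed here. Genotype and day differ together between the groups and cannot be told apart, and the pooled tissue does not separate a change in cell makeup from a change of mRNA per cell.

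The mitochondrial ribosome makes the few proteins that mitochondrial DNA encodes, all of them subunits of the respiratory chain and the ATP synthase. Its rRNAs come from mitochondrial DNA, but its proteins are encoded in the nucleus, made in the cytosol and imported. Many of them descend from bacterial ribosomal proteins, while others have no bacterial counterpart and were added during the evolution of mitochondria. In flies, loss of the function of such genes slows growth and development, and the best known example, technical knockout (tko), also makes adults prone to seizures on mechanical shock.

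Values are log2 expression as deposited, so that 1 unit is a 2-fold difference, and every difference is lgl day 4 minus FRT82B day 0. All 69 genes were brighter than the median probe set on average, and their values ran from 6.91 to 10.31 over all arrays. On most of them the mutant tissue read slightly lower than the control tissue, by a median of 0.27 (1.20-fold), with 57 genes below 0 and 12 above. The differences ran from -0.77 for mRpL35 to 0.50 for mRpL38. Over all 11982 genes the median difference was -0.026, with 6645 below 0, and over the 7485 genes brighter than the median probe set it was 0.019, with 3616 below 0.

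None of these differences passed the test. limma with Benjamini-Hochberg adjustment over 18769 probe sets called 0 of the 69 genes at an adjusted p under 0.05 and a log2 difference of at least 1, against 0.543% of all probe sets called higher and 0.506% called lower in lgl tissue. Without the fold cut-off it also passed 0 of them, against 0.847% higher and 0.778% lower over all probe sets, and the lowest adjusted p among the 69 was 0.107. At an unadjusted p under 0.05 there were 6 lower and 4 higher, against 9.93% and 8.49% of all probe sets. The 95% intervals rest on a spread pooled over both groups, although the FRT82B arrays spread more than the lgl arrays on 61 of the 69 genes. They also leave out any shift that the genes share on a control array, so they are not separate bounds. For 60 of the 69 genes the interval lay within 1 log2 unit of 0, for 9 it reached below -1, and for 0 above 1. The standard errors (SE) ran from 0.074 to 0.31, with a median of 0.20.

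**Figure D1:**
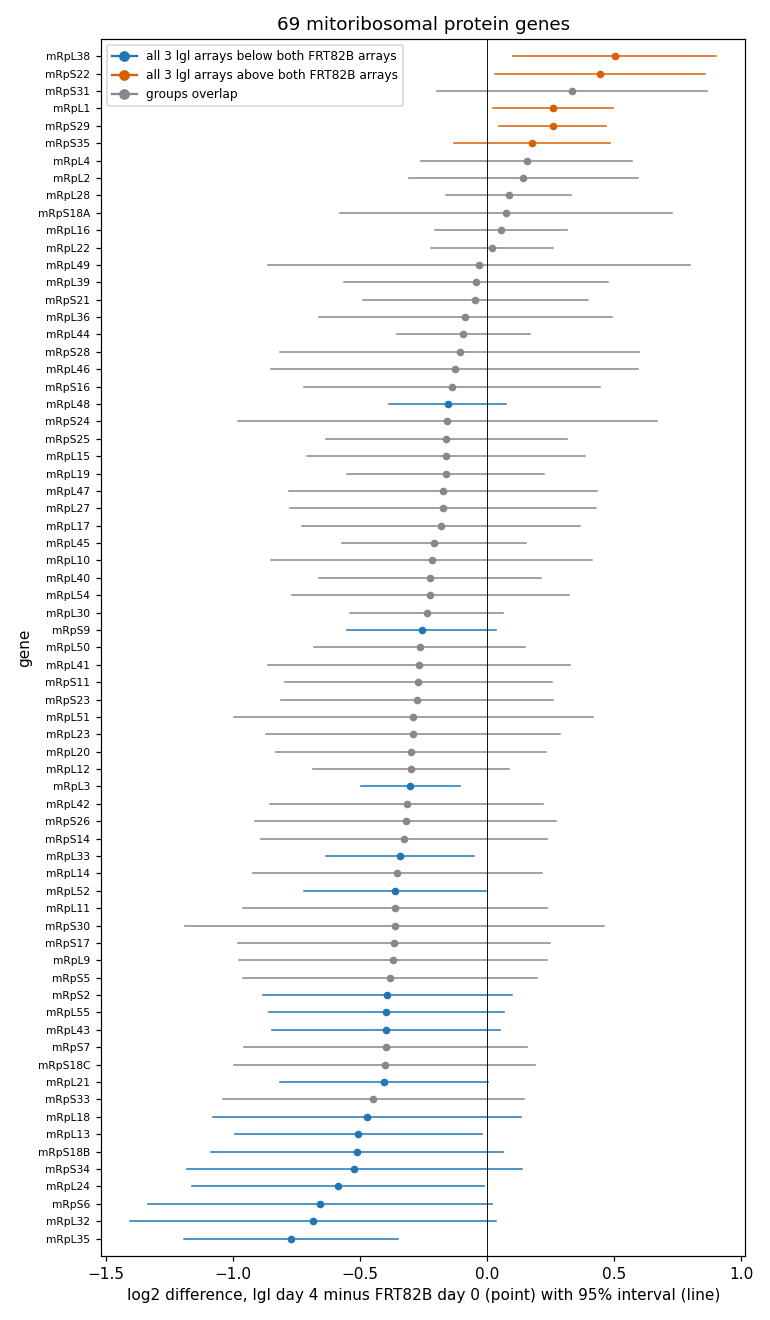
Log2 difference of each of the 69 mitoribosomal protein genes (vertical axis), lgl day 4 minus FRT82B day 0 (horizontal axis), as a point with its 95% interval from limma. Blue marks the 17 genes whose lgl arrays all lay below both FRT82B arrays, orange the 5 whose lgl arrays all lay above them, and grey the genes whose groups overlapped. Most points lie left of 0 and most intervals cross it.

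Whether the groups overlapped was then read gene by gene. On 17 of the 69 genes (24.6%) all lgl arrays lay below both FRT82B arrays, which was close to the 23.2% of the genes brighter than the median and to the 20.2% of all probe sets. On 5 genes (7.25%) all lgl arrays lay above both, against 25.1% of the brighter genes and 14.7% of all probe sets. With each array centred on its median, the split among the 69 genes was 16 lower (23.2%) and 8 higher (11.6%), against 14.2% and 25.8% of all probe sets. The share over all probe sets thus moved with the scaling, and the difference between the 69 genes and the rest was not tested.

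The size of the difference depended on the control array. FRT82B array 1 read above FRT82B array 2 on 63 of the 69 genes (91.3%), by a median of 0.53, while over all genes it read higher on 53.2%, by a median of 0.024. Against FRT82B array 1 alone, the lgl mean lay lower on 59 genes with a median difference of -0.48. Against FRT82B array 2 alone it lay lower on 39 genes, and the median difference was -0.027. The control arrays therefore differed from each other by a larger median than the groups did. The SD was larger among the FRT82B arrays than among the lgl arrays on 61 of the 69 genes, with medians of 0.37 and 0.16.

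The lgl arrays were not alike either. lgl array 3 read above lgl array 1 on 63 of the 69 genes, by a median of 0.26, and above lgl array 2 on 61, by a median of 0.23. Over the genes brighter than the median, lgl array 1 was the higher one of the first pair on 56.6% and lgl array 2 of the second pair on 60.4%. lgl arrays 1 and 2 differed by a median of 0.027, with array 2 the higher. Taken as the deviation from each gene's own mean over the 5 arrays, the median over the 69 genes was 0.42 on FRT82B array 1, 0.080 on lgl array 3, -0.082 on FRT82B array 2, -0.16 on lgl array 2 and -0.18 on lgl array 1. A control array and a mutant array thus lay side by side in the middle of the order. FRT82B array 1 held the highest value of 55 genes and lgl array 3 that of 12, whereas lgl arrays 1 and 2 held the highest value of 0. The lowest value was on lgl array 1 for 31 genes, on lgl array 2 for 14, on FRT82B array 2 for 14, and on FRT82B array 1 and lgl array 3 for 5 each.

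**Figure D2:**
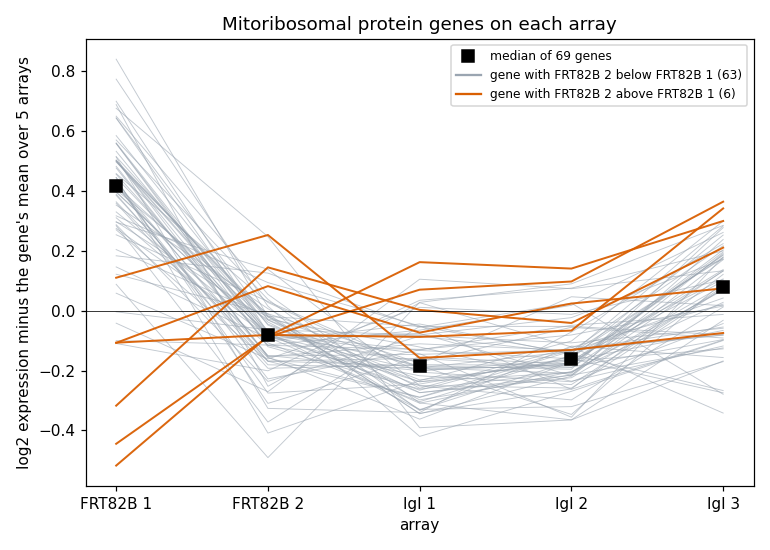
Deviation of each mitoribosomal protein gene from its own mean over the 5 arrays (log2, vertical axis) on each array (horizontal axis), 1 line per gene, with the median over the 69 genes as black squares. FRT82B array 1 stands above the other arrays with a median deviation of 0.42, and the 6 genes that read higher on FRT82B array 2 than on array 1 are drawn in orange.

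The targeted gene l(2)gl read 7.74 and 6.74 on FRT82B arrays 1 and 2 and between 2.24 and 2.44 in lgl tissue, as the labels have it. Other features differed between the arrays too, not all in the order of the mitoribosomal values, and their part in those values was not tested. Across all probe sets FRT82B array 2 correlated with the lgl arrays at 0.982 to 0.984, as closely as with FRT82B array 1 (0.981), while FRT82B array 1 correlated with the lgl arrays at 0.970 to 0.972. The fly 18S rRNA 3′ control probe set read 8.36 on lgl array 3 against 6.07 to 6.63 on the other arrays, and the GAPDH 3′ control read 12.61 on FRT82B array 1 against 11.43 to 11.82 on the others. The actin control's 3′ minus 5′ difference, a sign of RNA integrity, was 0.71 and 0.73 in FRT82B and 0.35 to 0.58 in lgl tissue. That of eIF-4a was also higher in FRT82B without overlap, at 1.68 and 2.01 against 1.41 to 1.65. That of GAPDH (1.21 and 1.37 against 1.18 to 1.36) and that of 18S rRNA (2.61 and 2.65 against 2.09 to 2.79) overlapped. Of 11 brain and eye disc markers 7 lay above 0 and 4 below, with array medians from 7.26 to 7.66. The neuronal marker elav was at 9.18 and 10.29 in control and 8.83 to 9.57 in mutant tissue, and the glial marker repo 7.66 and 8.50 against 8.84 to 8.89. The proneural gene ato was called lower (-1.47, adjusted p = 0.0499), and the neuroblast gene dpn had the highest difference of the list (1.20, adjusted p = 0.0512). However, ase, also a neuroblast gene, read 9.07 and 8.38 in control and 8.72 to 9.04 in mutant tissue (0.15). The neuronal gene nSyb read 7.90 and 7.45 against 6.89 to 7.13 (-0.68), with FRT82B array 1 the higher control array, unlike in elav. Muscle markers were also highest on FRT82B array 1 and low on lgl arrays, with medians over the 4 measured of 5.74 and 4.83 on FRT82B arrays 1 and 2 and of 4.20, 3.91 and 4.47 on lgl arrays 1, 2 and 3. The median over 6 haemocyte markers was 5.59 and 5.01 in FRT82B against 6.34, 6.91 and 5.60 in lgl tissue. For the 3 fat body markers measured it was 5.40 and 6.51 against 8.53, 6.29 and 8.01, for 4 trachea markers 4.36 and 5.83 against 7.05 to 7.19, for 5 ring gland markers 6.07 and 7.86 against 3.60 to 3.74, and for 6 salivary gland markers 4.13 and 5.45 against 3.82 to 4.64.

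By subunit the picture was similar. The large subunit, which forms the peptide bond, had 46 genes with a median difference of -0.23, of which 38 were below 0. The small subunit, which binds the mRNA and reads its codons, had 23 genes with a median of -0.28, of which 19 were below 0. mRpS30 and mRpS18A were counted with the large subunit, where the mammalian proteins sit despite their names. Both subunits were near their FRT82B array 2 level, at -0.029 and -0.012, and well below FRT82B array 1, at -0.47 and -0.58. The 42 proteins with a bacterial counterpart had a median of -0.29 with 36 below 0, and the 27 without one, among which mRpS18A and mRpS18B were counted since they are related to bacterial S18 but sit elsewhere in the mammalian ribosome, had a median of -0.22 with 21 below 0. Of the 5 genes that lay higher in lgl tissue without overlap, 4 encode proteins without a bacterial counterpart, and of the 17 lower ones 5 do. These were 14.8% and 18.5% of the 27, while 2.38% of the 42 lay higher and 28.6% lower. Genes brighter than the median had 25.1% higher and 23.2% lower, and the difference between the classes was not tested.

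Among the genes that lay lower, mRpL35, which encodes a small protein of bacterial type in the large subunit, differed most. It read 8.88 and 8.46 in FRT82B and 7.82, 7.84 and 8.04 in lgl tissue. The control arrays lay closer together than in most of the lower genes, and the log2 difference was -0.77 (SE 0.16, 95% interval from -1.19 to -0.35, limma adjusted p = 0.107), or 1.71-fold. Omitting single arrays gave differences from -0.98 to -0.56.

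mRpL32, the counterpart of a zinc-binding bacterial protein that in yeast is matured by a mitochondrial protease, read 8.29 and 7.43 in FRT82B and 7.12, 7.12 and 7.28 in lgl tissue. Most of its difference of -0.68 (SE 0.27, adjusted p = 0.295) came from FRT82B array 1, against which it was -1.11, while it was -0.25 against FRT82B array 2. mRpL24, which lies at the exit tunnel of the bacterial ribosome, read 8.55 and 7.95 in FRT82B and 7.59, 7.53 and 7.86 in lgl tissue, a difference of -0.59 (SE 0.22, adjusted p = 0.263). mRpL13, which stabilises the fold of the large rRNA in bacteria, read 9.24 and 8.70 against 8.33, 8.55 and 8.51 (-0.51, SE 0.18, adjusted p = 0.256). In mRpL24 and mRpL13 FRT82B array 1 stood above the rest, and FRT82B array 2 lay nearer to the lgl arrays than to it. mRpL18, whose bacterial counterpart binds 5S rRNA, read 8.78 and 8.06 against 8.01, 7.98 and 7.87 (-0.47, SE 0.23).

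On the small subunit, mRpS6 read 8.77 and 8.01 in FRT82B and 7.57, 7.72 and 7.89 in lgl tissue (-0.66, SE 0.26, adjusted p = 0.284). mRpS34, a protein without bacterial counterpart, read 8.93 and 8.15 against 7.90, 8.06 and 8.10 (-0.52, SE 0.25). In both, FRT82B array 1 stood far above the rest. The remaining 4 arrays lay close together in mRpS34, but ran from 7.57 to 8.01 in mRpS6. Like mRpS34 was mRpS2, a protein of the small subunit's body in bacteria, at 8.17 and 7.61 against 7.41, 7.48 and 7.58.

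Smaller differences without overlap were seen where the control arrays lay close to each other. mRpL3, which in bacteria reaches toward the peptidyl transferase centre, read 7.99 and 8.13 in FRT82B and 7.72, 7.75 and 7.80 in lgl tissue. It was 1 of 2 genes whose highest value was on FRT82B array 2, and its difference of -0.30 had the smallest SE of the 69 genes (0.074, adjusted p = 0.140). mRpL33 read 10.06 and 9.84 against 9.70, 9.48 and 9.65 (-0.34, SE 0.11, adjusted p = 0.212), mRpS9 8.77 and 8.72 against 8.54, 8.62 and 8.31, and mRpL52 8.88 and 8.73 against 8.34, 8.33 and 8.66. mRpL48 had the smallest difference of the lower genes without overlap (-0.15, SE 0.087). mRpL21, mRpL43 and mRpL55, also lower without overlap, differed by -0.40 each. Their FRT82B arrays lay further apart, however, and against FRT82B array 2 alone the differences were -0.19, -0.14 and -0.13.

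The 5 genes on the other side were led by mRpL38, a protein without bacterial counterpart that resembles phosphatidylethanolamine-binding proteins. It read 7.71 and 8.14 in FRT82B and 8.39, 8.37 and 8.53 in lgl tissue, a difference of 0.50 (SE 0.15, 95% interval from 0.10 to 0.90, adjusted p = 0.194). mRpS22, another protein without bacterial counterpart, read 8.16 and 8.51 against 8.67, 8.70 and 8.97 (0.44, SE 0.16, adjusted p = 0.247). For both, FRT82B array 2 lay above FRT82B array 1, opposite to most of the 69 genes, and nearer to the lgl arrays. mRpL1, whose bacterial counterpart forms the mobile stalk that guides spent tRNA out, read 7.88 and 7.65 against 8.02, 7.99 and 8.05 (0.26, SE 0.089, adjusted p = 0.240). mRpS29, the GTP-binding protein known in mammals as death-associated protein DAP3, read 7.66 and 7.57 against 7.81, 7.85 and 7.97 (0.26, SE 0.080, adjusted p = 0.201). The last of the 5, mRpS35, read 7.71 and 7.69 against 7.74, 7.83 and 8.07 (0.18, SE 0.12), so that its FRT82B arrays lay just under the lowest lgl array.

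**Figure D3:**
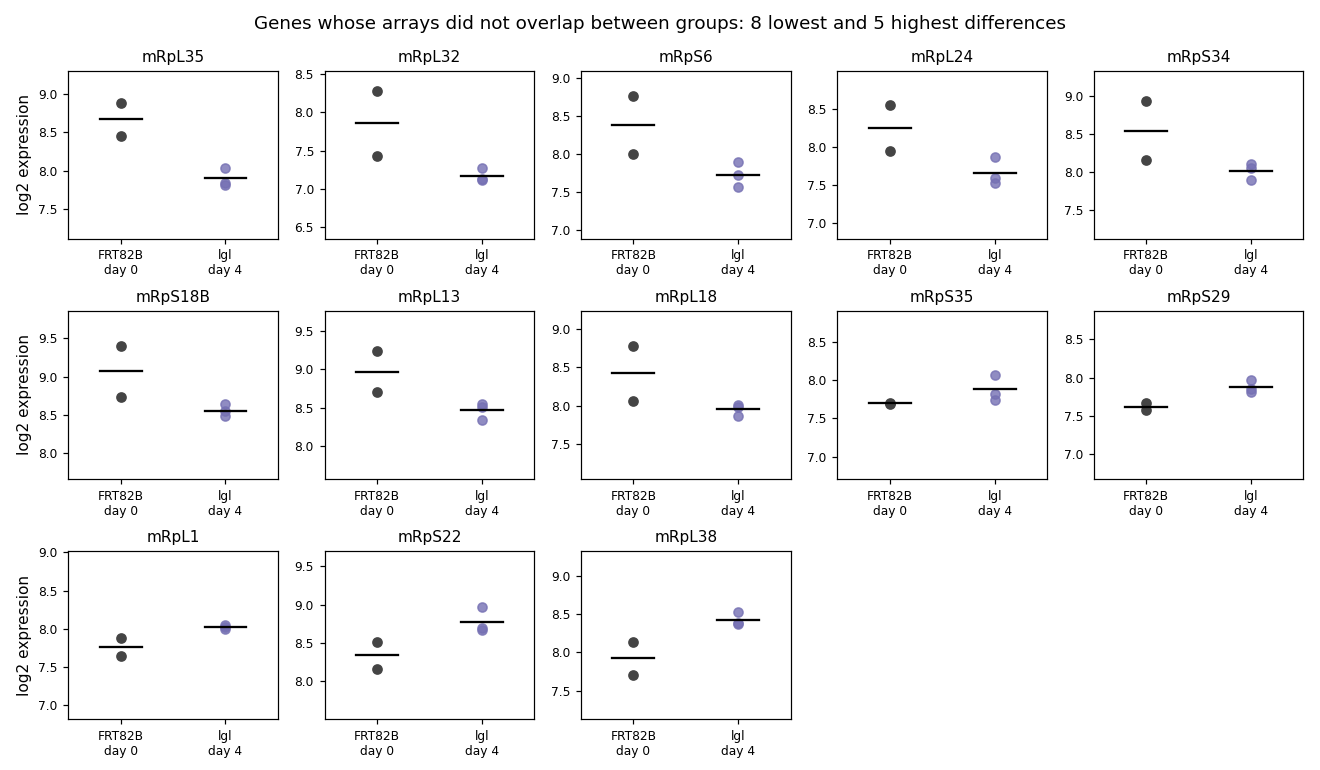
Log2 expression on each array for 13 genes whose arrays did not overlap between groups, the 8 with the lowest and the 5 with the highest differences, with FRT82B day 0 at left, lgl day 4 at right and group means as bars. Each panel spans 2.2 log2 units centred on the gene's mean. The FRT82B points are far apart in most panels of lower genes, as in mRpL32 at 8.29 and 7.43.

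The genes of the factor-binding stalk, which recruits elongation factors, did not separate the groups. mRpL12, which in flies is needed for growth driven by Cyclin D and Cdk4, read 9.56 and 9.22 in FRT82B and 8.95, 9.09 and 9.23 in lgl tissue (-0.30, SE 0.15). Its partners mRpL10 and mRpL11 differed by -0.22 and -0.36, and in both of them lgl array 3 lay above FRT82B array 2. At the exit tunnel, mRpL22 read 8.41 and 8.60 against 8.45, 8.54 and 8.60, a difference of 0.021 (95% interval from -0.22 to 0.26), and mRpL23 differed by -0.29. mRpL45, which in mammals lies near the tunnel exit and holds the ribosome to the inner membrane, differed by -0.21 from both FRT82B arrays together and by -0.0022 from FRT82B array 2 alone. Its other arrays lay close together and FRT82B array 1 stood alone. At the catalytic core mRpL2 differed by 0.14, mRpL16 by 0.056 and mRpL27 by -0.17, and each of them overlapped between groups.

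Flies have 3 genes related to the bacterial protein S18. mRpS18C, whose mammalian counterpart takes the place of S18 in the small subunit, read 8.71 and 8.19 in FRT82B and 7.87, 7.95 and 8.33 in lgl tissue (-0.40, SE 0.22, adjusted p = 0.423). mRpS18B, measured by a probe set whose name marks it as matching several transcripts, read 9.40 and 8.73 against 8.49, 8.54 and 8.63 (-0.51, SE 0.22, adjusted p = 0.323). mRpS18A read 9.15 and 8.50 against 8.81, 8.72 and 9.15 (0.073, SE 0.25). Only mRpS18B was free of overlap, and whether the 3 differ from each other in their response was not tested.

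The control arrays were furthest apart on mRpS30, at 9.43 and 8.49, where the lgl arrays read 8.77, 8.62 and 8.40, the last of them below both. mRpL49 and mRpS24, chosen like mRpS30 after their values were seen, had gaps of 0.85 and 0.84 between the FRT82B arrays and differences between the groups of -0.030 and -0.16. At the other end, 6 genes read higher on FRT82B array 2 than on array 1, namely mRpL2, mRpL38, mRpS22, mRpL22, mRpL3 and mRpL4, by 0.46, 0.43, 0.36, 0.19, 0.14 and 0.026. They are 5 genes of the large subunit and 1 of the small subunit. The 2 genes with another probe set gave like values, with -0.28 beside -0.27 for mRpS11 and -0.18 beside -0.17 for mRpL47.

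The shared movement was then taken out by centring each array on the median of the 69 genes, which describes how they moved relative to each other. This setting was chosen after the values were seen, and it raises the median difference over all probe sets from -0.032 to 0.16. limma again passed 0 of the 69 genes at an adjusted p under 0.05, at any fold, against 1.19% lower and 2.24% higher of all probe sets. On this scale 18 genes (26.1%) lay lower and 11 (15.9%) higher without overlap, against 7.08% and 17.4% of all probe sets. Since the centring shifts all probe sets by the 69 genes' own array differences, these shares do not compare the 69 genes with the rest. mRpL35 differed by -0.58 (SE 0.20, adjusted p = 0.173) and its FRT82B arrays, at 0.34 and 0.35 above its own mean, now lay side by side, with the lgl arrays at -0.24, -0.24 and -0.22. mRpS31, a protein without bacterial counterpart that overlapped between groups before, differed by 0.53 (SE 0.20, adjusted p = 0.223), with -0.25 and -0.39 in FRT82B against 0.18, 0.22 and 0.23. mRpL38 differed by 0.70 (SE 0.26) and mRpS22 by 0.64 (SE 0.25), but their FRT82B arrays lay further apart than before centring. They stood at -0.85 and 0.016 from the gene's own mean for mRpL38 and at -0.78 and 0.014 for mRpS22. mRpL35 and mRpL38 had been at the ends of the order before centring too.

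Another 3 proteins of the mitochondrial ribosome, which carry other symbols, also had differences below 0, and 0 of them were called. bonsai, the counterpart of bacterial S15, read 9.62 and 9.04 in FRT82B and 8.59, 8.75 and 8.51 in lgl tissue (-0.71, SE 0.20, adjusted p = 0.173). CRIF, which in mammals sits at the tunnel exit, read 8.93 and 8.12 against 7.97, 7.88 and 7.71 (-0.67, SE 0.26, adjusted p = 0.284). tko, the counterpart of the decoding protein S12, read 9.69 and 8.97 against 8.90, 8.74 and 9.35, so that its groups overlapped (-0.33, SE 0.29). The 3 genes shared the high value on FRT82B array 1, but in bonsai and CRIF lgl array 3 was the lowest of the lgl arrays, unlike in most of the 69 genes.

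Genes of other steps of mitochondrial gene expression were read in the same way, and their difference from the 69 genes was not tested. Of 8 measured translation factors 4 lay below 0 and 4 above, with a median of 0.0046, and 0 were called. The recycling factor mRRF1 read 6.99 and 6.63 in FRT82B and 6.19, 6.22 and 5.92 in lgl tissue (-0.70, SE 0.16, adjusted p = 0.120), and the initiation factor mIF3 read 5.89 and 4.97 against 4.93, 4.61 and 4.77 (-0.66). Of 10 genes for the upkeep and transcription of mitochondrial DNA, 1 rose. This was mtDNA-helicase, which unwinds the DNA for replication, from 6.04 and 6.09 to 7.12, 7.03 and 7.09, a log2 difference of 1.02 (SE 0.063, adjusted p = 0.0209). Its difference stayed at 0.99 to 1.04 when single arrays were omitted. The adjusted p was 0.0502 without FRT82B array 1 and 0.132 to 0.150 without each lgl array, and 0 of 18769 probe sets passed in the fits without an lgl array. The other 9 were not called and the median of the 10 was 0.090. Of 14 mitochondrial aminoacyl-tRNA synthetases 0 were called, with a median of -0.11 and 10 below 0, and SerRS-m (0.60, adjusted p = 0.0516) and GluRS-m (-0.56, adjusted p = 0.129) had the largest differences. Of 4 genes for the processing of mitochondrial tRNA 0 were called, with a median of 0.031 and the largest values for scu (0.40) and mldr (0.22). Of 4 regulators of mitochondrial biogenesis measured 0 were called by the probe set used, with a median of 0.30. The regulator ewg has 2 probe sets. The brighter, used here, differed by 0.29, but the study lists the other among the mRNAs significantly higher in lgl tissue. Ets97D, a factor that drives mitochondrial genes in flies, read 7.58 and 6.68 in FRT82B and 7.50, 7.40 and 7.42 in lgl tissue (0.32), and Dref read 8.88 and 9.11 against 9.44, 9.42 and 9.14 (0.34).

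The nuclear genes of the respiratory chain and ATP synthase, whose complexes hold the products of the mitochondrial ribosome, also lay mostly below 0. Of 72 measured, 62 lay below 0 and the median was -0.23. Taken against FRT82B array 1 alone it was -0.39, and against FRT82B array 2 it was -0.14, where 55 of the 72 were still below 0, compared with 39 of the 69 mitoribosomal genes. FRT82B array 1 read above array 2 on 54 of the 72, by a median of 0.27, and 27 (37.5%) lay lower and 2 (2.78%) higher in lgl tissue without overlap, where the genes brighter than the median had 23.2% and 25.1%. COX7A, a subunit of cytochrome oxidase, passed the adjusted p at a difference under the fold cut-off, from 11.82 and 11.66 to 11.05, 11.10 and 10.98 (-0.69, SE 0.082, adjusted p = 0.0431), and 0 of the others did. Its difference ran from -0.77 to -0.62 over the fits without 1 array, but the adjusted p was 0.0632 without FRT82B array 1, 0.0503 with an intensity trend, 0.172 with array weights, and 0.179 to 0.349 without each lgl array or with the replicate block, where 0 probe sets passed. The difference between this list and the mitoribosomal genes was not tested.

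The cytosolic ribosome was compared next. Of 34 measured genes for its proteins 20 lay above 0 and 14 below, with a median of 0.051, and 0 were called. FRT82B array 1 read above array 2 on 29 of them, by a median of 0.085. The array medians of this list were 13.16 to 13.29, far brighter than the 8.29 to 8.78 of the mitoribosomal genes. A few relatives lay very low, such as RpL10Aa at 2.68 to 2.85. Whether brightness bears on the size of the gap was not tested. RpL3 read 11.67 and 12.95 in FRT82B and 12.97, 13.08 and 12.97 in lgl tissue (0.70), and RpS5b 8.11 and 7.59 against 8.51, 8.47 and 8.88 (0.77). Of 14 genes for the making of cytosolic ribosomes and the nucleolus, 10 lay above 0 with a median of 0.37, and 1 rose, Non1, a GTPase of nucleolar 60S assembly, from 10.04 and 10.09 to 11.34, 11.34 and 11.00 (1.16, SE 0.13, adjusted p = 0.0408). Its difference was 1.11 to 1.28 when single arrays were omitted, with an adjusted p of 0.0888 without FRT82B array 1 and of 0.135 to 0.217 without each lgl array. Of 14 cell cycle and replication genes 12 lay above 0 with a median of 0.63, all 12 without overlap (25.1% of the genes brighter than the median), and 0 were called. Incenp, of the chromosomal passenger complex, read 7.63 and 8.68 against 9.22, 9.41 and 9.10. Against the mean of both FRT82B arrays these 3 medians were above 0 and the mitoribosomal median below it, but against FRT82B array 1 alone the cytosolic ribosomal median was -0.017.

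**Figure D4:**
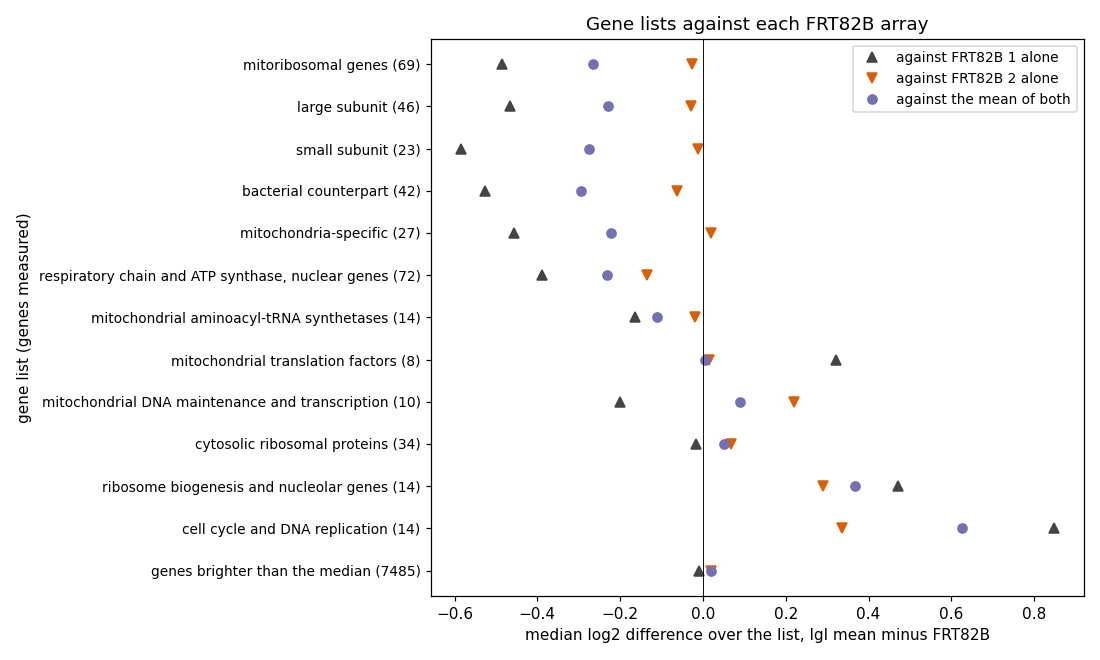
Median log2 difference over each gene list (horizontal axis), the mean of the 3 lgl arrays minus FRT82B array 1 alone (triangle up), minus FRT82B array 2 alone (triangle down) and minus the mean of both (circle), with the number of genes in brackets. For the mitoribosomal genes the median was -0.48 against FRT82B array 1 and -0.027 against FRT82B array 2.

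Leaving out single arrays moved these results. Without FRT82B array 2, limma passed 19 of the 69 genes as lower and 1 as higher at an adjusted p under 0.05, against 12.3% and 10.8% of all probe sets, and 2 of them, mRpL32 and mRpS6, also passed the fold cut-off. That fit takes the spread of the lone control array from the lgl arrays. The fit without FRT82B array 1 has the same limit, and there the median difference over the 69 genes was -0.027. Without lgl array 3, 39 genes lay lower without overlap, against 26.4% of all probe sets, and the median difference over the 69 genes was -0.32.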

How the data were processed

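The authors processed the arrays with RMA and deposited its log2 values for 18952 probe sets. Its software version is not given in the sources used here. Because RMA equalises the arrays' distributions, a shift common to most mRNAs is removed. Control probe sets (183) were not tested. Genes were named from the platform's annotation, which gave 1 symbol for 13647 probe sets, several for 402 and none for 4720. 13544 of those with 1 symbol were matched by gene identifier to RefSeq symbols (Release 6 plus ISO1 MT). No result given here uses the RefSeq coordinates.

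Groups were compared with limma 3.58.1 (lmFit and eBayes, R 4.3.3) and Benjamini-Hochberg adjustment over 18769 probe sets, after the study's methods. The procedure was tested on simulated data with independent noise of the same spread in both groups. That test does not cover the larger FRT82B spread or shifts shared by many genes. Arrays were assigned by their titles, which call them biological replicates. Precision is limited by the few arrays. The members and lists were chosen with earlier results of these data known. Named were the 8 lowest and up to 8 highest differences among genes without overlap, any gene passing the adjusted p, the S18 relatives, mitoribosomal proteins with other symbols, and in the other lists up to 4 genes passing or 2 with the largest differences. Further genes were named for their role or after their values were seen.

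Alternatives were the omission of each array, a replicate block, weights per array, median centring, a further quantile normalisation, a robust prior with an intensity trend, only the brighter probe sets, and other choices of a gene's probe set. No sequence is shown.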

Additional observations from a re-analysis of the deposited data

How the results depend on the processing

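The median over the 69 genes kept its sign under every setting tried, which says little where it was near 0. With centring on the 69 genes' own median it was -0.072, near 0 by construction. It was -0.25 with quantile normalisation again, -0.22 with median centring and -0.32 with the replicate number as a block, and ran from -0.48 to -0.027 over the fits that left out 1 array, with -0.027 without FRT82B array 1 or, equally, against FRT82B array 2 alone. Counts of genes passing the adjusted p, with or without the fold cut-off, were 0 under all settings but 1. Without any 1 of the lgl arrays and with the replicate block, however, 0 of 18769 probe sets passed, so that those counts of 0 say nothing about stability. Over the fits without 1 array they ran from 0 to 2 (called lower), from 0 to 19 (lower at any fold) and from 0 to 1 (higher at any fold), each maximum without FRT82B array 2. Genes without overlap ran from 18 to 56 (lower) and from 5 to 16 (higher) when 1 array was left out, where fewer arrays make separation easier. Over all probe sets the same fits had 23.2% to 43.3% lower and 16.5% to 29.2% higher, with 43.3% beside the 56 genes (81.2%) and 29.2% beside the 16 (23.2%). The higher ones were 8 with median centring (25.8% of all probe sets) and 11 with centring on the 69 genes' own median (17.4%).

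The replicate numbers are shared by title only. The difference between FRT82B arrays 1 and 2 correlated with that between lgl arrays 1 and 2 at 0.059 over probe sets. Over the 69 genes this correlation was -0.086. With the block (lgl array 3 has no partner) limma passed 0 of the 69 genes. Against the FRT82B arrays taken singly, 24 of the 69 genes had differences of opposite sign. Of the 33 genes followed through all settings 3 changed sign: mRpS18A (-0.054 with the replicate block and without lgl array 3, and from -0.25 without FRT82B array 2 to 0.40 over the fits without 1 array), tko (0.026 without FRT82B array 1, from -0.69) and Ets97D (-0.13 without FRT82B array 2, up to 0.77). The cause was not tested. mtDNA-helicase and Non1 also lost their calls with array weights (adjusted p = 0.101 and 0.196) and with the block (0.316 and 0.308), and mtDNA-helicase fell under the fold cut-off with quantile normalisation again (0.93). With 2 control arrays, differences the size of the gap between them could not be resolved.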
